A study of Mus musculus with 10 samples.

Results

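The JAK, STAT and SOCS genes described here are 9 of the 24391 gene names in the count tables: the kinase genes Jak1 and Jak2, the transcription factor genes Stat2, Stat3, Stat5a, Stat5b and Stat6, and the feedback inhibitor genes Socs1 and Socs3. They were chosen by name, as members of one signaling pathway, and all 9 had enough counts to be tested. Bulk RNA sequencing was done on the whole hippocampus of both sides, with 1 library per mouse, 4 days after surgery. SAH mice (n = 4) had subarachnoid hemorrhage from a filament that perforated the circle of Willis on 1 side. In Sham mice (n = 3) a filament went up to the point of resistance but punctured nothing, and Naive mice (n = 3) are labelled as without surgery or hemorrhage. All were adult male mice of a strain that the methods spell C56BL/6J, no engineered allele or drug treatment is described, and surgery was done under isoflurane, which the methods do not describe for Naive mice. SAH mice were included in the study only if blood flow over the parietal cortex dropped at perforation, so they stand for hemorrhages of at least that severity. Sham and Naive mice together are called Control (n = 6).

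Janus kinases (JAKs) sit on the inner side of cytokine receptors and are switched on when interferons, interleukins or growth hormone bind outside. They phosphorylate STAT proteins, which pair, enter the nucleus and switch on genes. Among those genes are the SOCS inhibitors, which shut the receptors down again. In brain, STAT3 is known for its part in the reaction of astrocytes to injury, STAT2 for the response to type I interferon, STAT6 for that to interleukin 4 and interleukin 13, and STAT5 for that to growth hormone and prolactin. Much of this signaling works by phosphorylation, which RNA counts do not measure.

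Libraries held between 19743388 and 27254655 counts on genes. Markers of hippocampal neurons (6 of 6 with a count in every mouse) summed to 2063 to 2162 CPM (counts per 1000000 after TMM scaling) in SAH and 2068 to 2155 CPM in Control. SAH mouse 3 stood apart from the other SAH mice: it was the highest or the lowest of the 4 in 68.2% of the 14993 tested genes, against 37.2% to 50.6% for the others. Markers of the choroid plexus, tissue that borders the hippocampus and can be taken with it, summed to 1218 CPM in SAH mouse 3, 857.7 in SAH mouse 4 and 822.3 in Sham mouse 7. In the other 7 mice they summed to 43.9 to 213.9 CPM, with all 6 markers counted in every mouse.

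In these hippocampi 1 of the 9 genes rose after hemorrhage, Stat6, by 1.33-fold, and none fell. In no gene of the 9 did all SAH mice lie below all control mice, an order found in 2.37% of tested genes. Stat3 and Socs3 had positive log2 fold changes that did not pass the test, and both were highest in SAH mouse 3. The kinase genes and Stat5b lay within a few percent of their control level. Genes that type I interferon switches on were higher by a much larger factor in the same mice, as described further on. The threshold was an adjusted p under 0.10 (edgeR's quasi-likelihood test, Benjamini-Hochberg over all 14993 tested genes), at which 4.68% of all tested genes were called in SAH against Control, 3.13% as higher. The median log2 fold change was 0.09 over the 9 genes and −0.0024 over all tested genes. At an unadjusted p under 0.05 there were 3 of the 9 (Stat3, Stat6 and Socs3), against 17% of all tested genes. In whole tissue, a change in the number of cells of a type and a change in RNA per cell cannot be told apart.

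**Figure D1:**
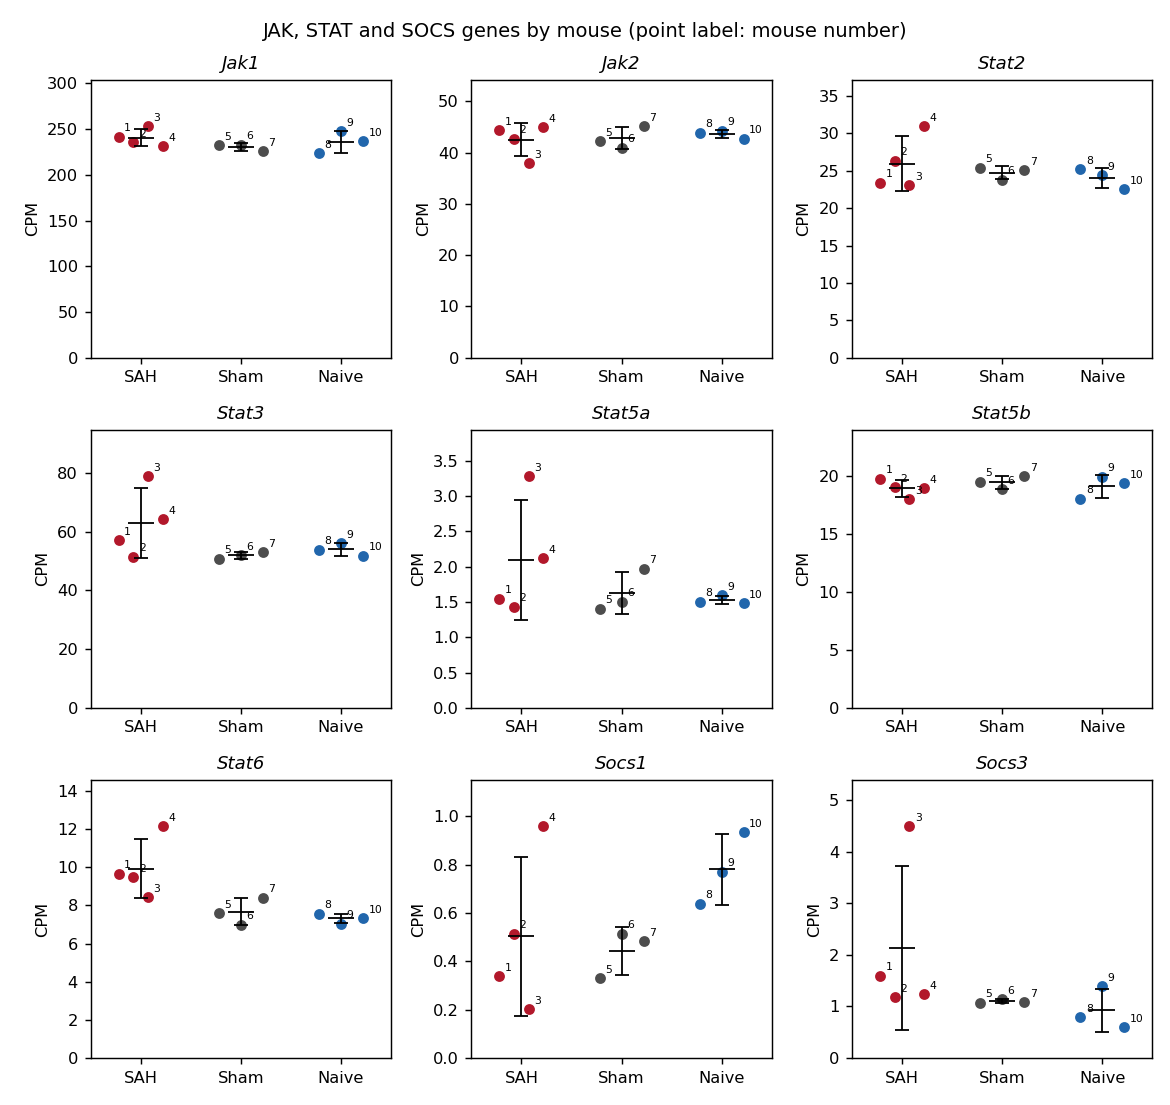
Level of each of the 9 genes in CPM (vertical axis, from 0) in SAH, Sham and Naive mice, with 1 point per mouse labelled by its number, and the mean and SD of each group in black. Stat6 is higher in every SAH mouse than in any control mouse, while mouse 3 is the highest SAH mouse in Stat3, Stat5a and Socs3.

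Per kilobase of annotated exon the 9 genes spanned about 2 orders of size. Jak1 was the most abundant at 44.6 CPM per kb over the 10 mice, followed by Stat3 (12.7), Jak2 (8.49), Stat2 (5.69), Stat5b (3.52) and Stat6 (2.23). Each of these 6 was higher in its lowest mouse than the next gene in its highest mouse, so their order held across every library. Socs3 (0.535), Stat5a (0.459) and Socs1 (0.425 CPM per kb) came last, and these levels overlapped: Socs3 was above Stat5a in 6 of 10 mice, and Stat5a above Socs1 in 5 of 10. In Control alone the last 3 changed order, with Socs1 at 0.457 ± 0.162, Stat5a at 0.406 ± 0.052 and Socs3 at 0.372 ± 0.103 CPM per kb (SD, n = 6).

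Among the kinases, Jak1 (chromosome 4, 100824579 to 100937887, minus strand, mm9) serves nearly all receptors of interferons and of the interleukin 6 family. It had 241.9, 236, 253.4 and 231.6 CPM in SAH mice 1 to 4, 232.2, 233.1 and 225.7 CPM in Sham mice 5 to 7, and 223.6, 247.5 and 236.7 CPM in Naive mice 8 to 10. The groups overlapped, with a log2 fold change in SAH against Control of 0.05 and a 95% interval from −0.04 to 0.13 (adjusted p = 0.577, edgeR). With 4813 to 6417 counts per mouse it was the most deeply counted of the 9, and a rise or fall of more than 10% in the group mean lies outside that interval. Raver2, on the opposite strand, shares 397 bases of exon with Jak1, and the counting used the strand.

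Jak2 (chromosome 19, 29326293 to 29387570, plus strand) serves the receptors of growth hormone, leptin and erythropoietin, and the second chain of the interferon gamma receptor. Its level was 44.3, 42.7, 37.9 and 45 CPM in SAH mice, 42.3, 41 and 45.2 in Sham mice and 43.9, 44.3 and 42.7 in Naive mice. SAH mouse 3 was the lowest of the 10, and the other SAH mice lay within the control range. The log2 fold change was −0.02 (95% interval −0.14 to 0.09, adjusted p = 0.856, edgeR).

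Stat2 (chromosome 10, 127707632 to 127729905, plus strand) codes for a factor that works with IRF9 in the answer to type I interferon. In SAH mice it had 23.4, 26.4, 23 and 31 CPM, in Sham mice 25.4, 23.8 and 25.1, and in Naive mice 25.2, 24.4 and 22.5. SAH mouse 4 was the highest of the 10 and SAH mice 1 and 3 lay inside the control range. The log2 fold change of 0.09 had a 95% interval from −0.07 to 0.26 (adjusted p = 0.573, edgeR), and it was −0.0041 without SAH mouse 4.

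Stat3 (chromosome 11, 100748124 to 100800825, minus strand) codes for the main factor downstream of interleukin 6, leukemia inhibitory factor and oncostatin M. It had 57.1, 51.5, 79 and 64.3 CPM in SAH mice, 50.9, 52 and 53 CPM in Sham mice and 54, 56.1 and 51.9 CPM in Naive mice. SAH mice 1, 3 and 4 were above every control mouse, and SAH mouse 2 was within their range. Its log2 fold change was 0.25 (SE 0.09, 95% interval 0.05 to 0.44), not past the threshold (adjusted p = 0.18, edgeR). Without SAH mouse 3 it was 0.12 (adjusted p = 0.395), and without SAH mouse 2, the low one, it was 0.33 and past the threshold (adjusted p = 0.0386). Without the 3 mice with the highest choroid plexus markers it was 0.04 (adjusted p = 0.884). That fit keeps SAH mice 1 and 2 and drops the SAH mice with the highest Stat3, so it does not test the part of that tissue.

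Stat5a and Stat5b code for close paralogs that answer growth hormone, prolactin and several interleukins. With Stat3 they form a cluster on chromosome 11, in which Stat5b (100642045 to 100711899, minus strand) and Stat5a (100720665 to 100746483, plus strand) point away from each other across 8765 bases, and Stat5a and Stat3 point toward each other across 1640 bases. Of the 50-base windows of the exons of Stat5a, 15.8% also occur in those of Stat5b, and 11.3% of those of Stat5b occur in Stat5a. Reads that aligned to more than 1 place were not counted, and how many were lost to either gene was not tested.

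Stat5a had 1.55, 1.43, 3.28 and 2.12 CPM in SAH mice, 1.4, 1.51 and 1.97 CPM in Sham mice and 1.5, 1.59 and 1.49 CPM in Naive mice, from 31 to 65 counts per mouse. The highest values were in SAH mouse 3, SAH mouse 4 and Sham mouse 7, the 3 mice with the highest choroid plexus markers. The part of that tissue in the result was not tested. A fit without these mice keeps SAH mice 1 and 2 and takes out the highest Stat5a values as well. It therefore cannot separate the tissue from Stat5a itself. Its log2 fold change was −0.0074. With all mice it was 0.39 (SE 0.22, adjusted p = 0.391, edgeR), and without SAH mouse 3 it was 0.11.

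Stat5b had 19.8, 19.1, 18 and 18.9 CPM in SAH mice, 19.5, 18.9 and 20 in Sham mice and 18.1, 20 and 19.4 in Naive mice. The groups covered nearly the same range. Its log2 fold change was −0.03, with a 95% interval from −0.14 to 0.09 (adjusted p = 0.841, edgeR). Per kilobase, Stat5b exceeded Stat5a by 3.14 ± 0.154 on the log2 scale in Control (SD, n = 6) and by 2.77 ± 0.593 in SAH (SD, n = 4), where mouse 3 had the smallest ratio at 1.97.

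Stat6 (chromosome 10, 127080042 to 127098043, plus strand) codes for the factor that answers interleukin 4 and interleukin 13 and is known for switching macrophages and microglia to an alternative state. It had 9.67, 9.49, 8.44 and 12.2 CPM in SAH mice, 7.59, 6.99 and 8.41 CPM in Sham mice and 7.56, 7.05 and 7.34 CPM in Naive mice. All SAH mice lay above all control mice, which held for 2.83% of all tested genes, but the lowest SAH mouse (mouse 3) was only just above Sham mouse 7. The mean was 9.94 ± 1.57 CPM in SAH (SD, n = 4) and 7.49 ± 0.516 CPM in Control (SD, n = 6), which is 0.41 on the log2 scale (SE 0.10, adjusted p = 0.0491, edgeR).

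The call for Stat6 was close to the threshold. With 1 mouse removed at a time it held 6 times of 10. It was lost, at 0.30, without SAH mouse 4 (adjusted p = 0.153, edgeR) and, at 0.41, 0.39 and 0.40, without Naive mouse 8, 9 or 10 (adjusted p = 0.104, 0.104 and 0.103). Without the 3 mice with the highest choroid plexus markers it was 0.39 and past the threshold (adjusted p = 0.0488). In that fit the SAH group holds only mice 1 and 2. Markers of microglia (6 of 6 counted in every mouse) summed to 274.2 to 331.8 CPM in SAH and 255.8 to 289.7 in Control, and SAH mouse 4 was the highest in both this sum and Stat6. The largest part was Csf1r (121 to 153 CPM in SAH), the 1 marker of the 6 that was called. Cx3cr1 and P2ry12 were highest in SAH mouse 1, with log2 fold changes of −0.06 and −0.05, and the other markers in SAH mouse 4. Endothelial markers (6 of 6) summed to 117.3 to 225.1 CPM in SAH, also with SAH mouse 4 highest, and to 99.5 to 138.4 CPM in Control. The part of these cells in the result was not tested. Nab2, which shares 70 bases of exon with Stat6 on the opposite strand, differed by −0.07 on the log2 scale (adjusted p = 0.63, edgeR).

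**Figure D2:**
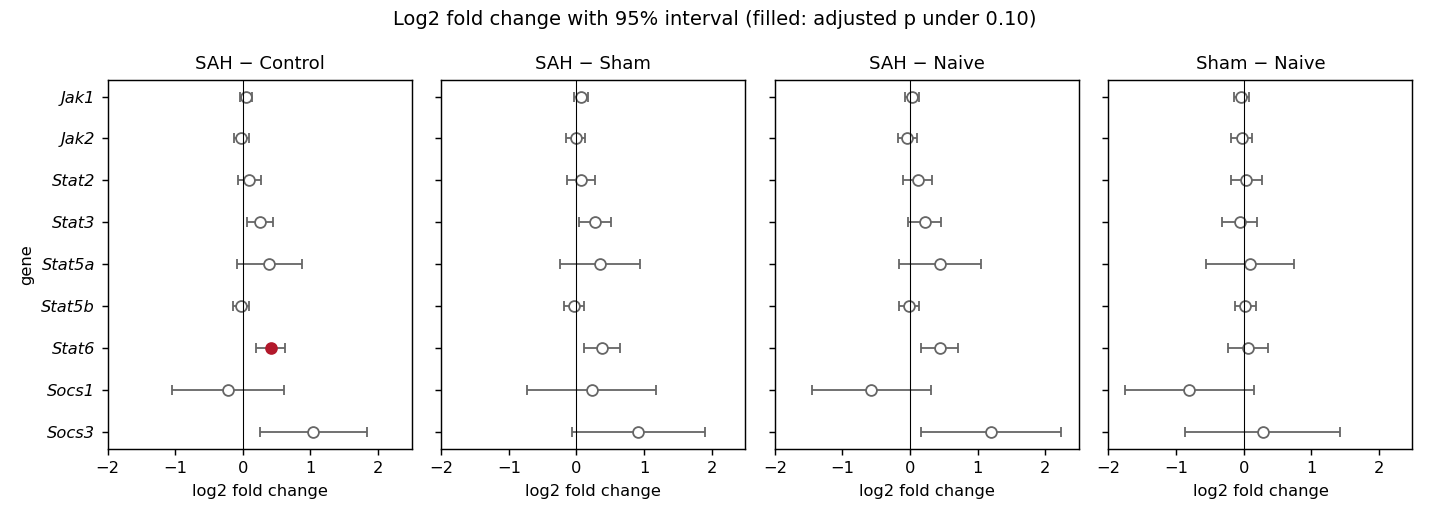
Log2 fold change (horizontal axis) of the 9 genes (vertical axis) in the 4 comparisons, with the 95% interval from edgeR as bars and a filled point where the adjusted p was under 0.10. Intervals are narrow and near 0 for Jak1, Jak2 and Stat5b and wide for Socs1, Socs3 and Stat5a, and Stat6 in SAH against Control is the 1 filled point.

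The SOCS genes code for inhibitors that bind JAKs or their receptors and are themselves switched on by STATs. Socs3 (chromosome 11, 117827401 to 117830680, minus strand) restrains the interleukin 6 receptor family and the leptin receptor, and Socs1 (chromosome 16, 10783902 to 10785629, minus strand) the interferon receptors. The promoters of both are shown because they were the members whose sequence held a motif of the pathway within 160 bases of the start: a STAT palindrome in Socs3 and an interferon-type repeat in Socs1. Stat6 is shown beside them as the gene that was called. Each line gives, 5′ to 3′ on the strand of the gene, the 250 bases before the annotated start, with matches in capitals. The mm9 positions are chr11:117830681-117830930 for Socs3 and chr16:10785630-10785879 for Socs1, both on the minus strand, and chr10:127079792-127080041 on the plus strand for Stat6.
Socs3: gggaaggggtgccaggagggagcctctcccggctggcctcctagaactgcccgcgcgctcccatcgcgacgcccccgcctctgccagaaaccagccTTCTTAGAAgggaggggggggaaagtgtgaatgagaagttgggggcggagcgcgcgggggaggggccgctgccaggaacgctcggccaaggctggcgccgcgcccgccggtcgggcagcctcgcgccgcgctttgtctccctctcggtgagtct
Socs1: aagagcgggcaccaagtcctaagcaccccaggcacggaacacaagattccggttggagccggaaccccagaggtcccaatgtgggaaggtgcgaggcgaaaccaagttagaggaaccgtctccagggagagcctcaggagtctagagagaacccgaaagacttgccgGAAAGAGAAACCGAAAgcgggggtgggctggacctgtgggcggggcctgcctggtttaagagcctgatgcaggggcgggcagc
Stat6: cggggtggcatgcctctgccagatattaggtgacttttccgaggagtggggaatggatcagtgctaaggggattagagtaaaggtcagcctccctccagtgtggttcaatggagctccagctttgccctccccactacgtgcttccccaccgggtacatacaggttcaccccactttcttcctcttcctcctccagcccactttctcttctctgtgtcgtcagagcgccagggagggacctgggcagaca
The motifs searched on both strands, from 250 bases before to 50 bases after the start, were TTC and GAA around any 3 bases, the palindrome most STATs bind, the same around any 4 bases, the wider form that STAT6 prefers, and a pair of GAAA around any 2 bases, the core of the interferon response element. In Socs3, TTCTTAGAA began 154 bases before the start. In Socs1, GAAAGAGAAA and GAAACCGAAA began 83 and 77 bases before it and shared 4 bases. Among the other 7 genes, 1 window held a match, TTCTGCAGAA in Stat5a, 238 bases before its start. Over the windows of 24181 genes the 3 motifs were present in 8%, 6.55% and 3.53%, so that 1 of 9 windows with each is a description and no more.

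Socs3 had 1.6, 1.18, 4.5 and 1.24 CPM in SAH mice, 1.07, 1.14 and 1.09 CPM in Sham mice and 0.79, 1.39 and 0.594 CPM in Naive mice. Counts were 33, 32, 89 and 31 in SAH mice and 14 to 31 in Control. SAH mouse 3 was far above all others, SAH mouse 1 slightly above them, and SAH mice 2 and 4 within the control range. The log2 fold change was 1.04 (SE 0.37, 95% interval 0.25 to 1.84), not past the threshold (adjusted p = 0.167, edgeR), and DESeq2 gave 1.07 with an adjusted p of 0.0905. Without SAH mouse 3 it was 0.40 (adjusted p = 0.532, edgeR), and without SAH mouse 2 it was 1.25 and past the threshold (adjusted p = 0.0835). Without the 3 mice with the highest choroid plexus markers it was 0.47 (adjusted p = 0.639). That fit keeps SAH mice 1 and 2 and drops mouse 3, the highest in Socs3, so it does not test the part of that tissue.

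Socs1 was the scarcest by counts, with 7, 14, 4 and 24 in SAH mice, 8, 14 and 12 in Sham mice and 17, 15 and 22 in Naive mice. That is 0.339, 0.515, 0.202 and 0.959 CPM in SAH mice, a range that enclosed all control mice. Its log2 fold change against Control was −0.22 with a 95% interval from −1.04 to 0.61 (adjusted p = 0.804, edgeR), so that the interval reaches from a fall of 1.04 to a rise of 0.61 on the log2 scale and no difference was detectable at this depth. The value was −0.72 without SAH mouse 4 and 0.021 without SAH mouse 3. All Sham mice lay below all Naive mice, as in 4.15% of tested genes, with a log2 fold change of −0.80 in Sham against Naive (95% interval −1.76 to 0.16, adjusted p = 0.9998).

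**Figure D3:**
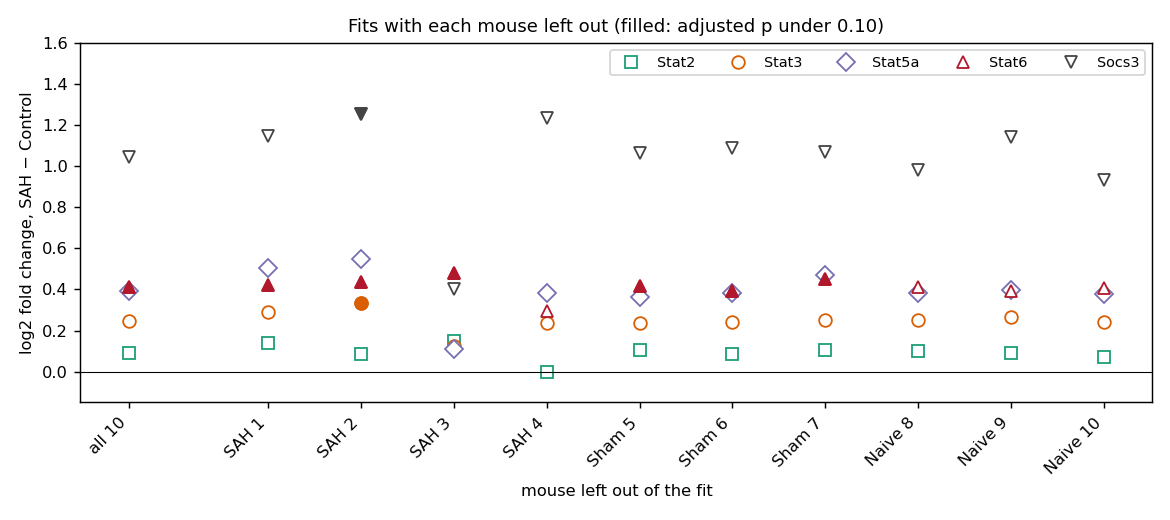
Log2 fold change in SAH against Control (vertical axis) of Stat2, Stat3, Stat5a, Stat6 and Socs3 with all 10 mice and with the mouse on the horizontal axis left out, with filled symbols where the adjusted p was under 0.10. Socs3, Stat3 and Stat5a are lowest without SAH mouse 3, whereas Stat6 and Stat2 are lowest without SAH mouse 4.

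The 4 SAH mice thus differed in which of the genes were high. SAH mouse 3 was the highest of the 4 in Stat3, Stat5a, Socs3 and Jak1 and the lowest in Stat2, Stat5b, Stat6, Jak2 and Socs1, so it was at an end of the range in all 9 genes. SAH mouse 4 was the highest in Stat2, Stat6, Jak2 and Socs1. Among all tested genes, SAH mouse 3 was at the upper end in 33.5% and at the lower end in 34.7%, and SAH mouse 4 at the upper end in 25.7%.

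Against Sham and against Naive mice taken separately (1 fit of the 3 groups), none of the 9 genes was called by edgeR, where it called 0.72% (0.529% higher, 0.192% lower) and 2.99% (2.03% higher, 0.965% lower) of 15134 tested genes. At an unadjusted p under 0.05 there were 2 of 9 in each, against 9.69% and 14.8% of tested genes, and DESeq2 called 0 and 1, out of 302 and 744 calls over all tested genes. These comparisons share the SAH mice. For Stat6 the log2 fold change was 0.38 against Sham (SE 0.12, adjusted p = 0.301) and 0.44 against Naive (SE 0.13, adjusted p = 0.114). For Stat3 it was 0.27 and 0.22 (adjusted p = 0.443 and 0.381), and for Socs3 0.91 and 1.2 (adjusted p = 0.561 and 0.26). Without SAH mouse 3 they were 0.15 and 0.096 for Stat3 and 0.27 and 0.56 for Socs3, while Stat6 was 0.45 against Sham and 0.51 against Naive, the latter past the threshold (adjusted p = 0.0345, edgeR). Between Sham and Naive mice edgeR and DESeq2 called 0 of the 9, and 0 of 9 had an unadjusted p under 0.05, where edgeR called 0.00661% of all tested genes and 2.02% had such a p. Intervals of that difference were narrow for Jak1 (−0.14 to 0.08) and Stat5b (−0.13 to 0.18) and wide for Socs3 (−0.87 to 1.43).

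In the rest of the family no gene passed the test. Of 9 further JAK, STAT and SOCS genes 8 were tested, and edgeR and DESeq2 called 0 of them, with 0 at an unadjusted p under 0.05. Jak3, the kinase of lymphoid cytokine receptors, had a log2 fold change of 0.22 and Tyk2, the kinase of the type I interferon receptor, of −0.02 (adjusted p = 0.416 and 0.919, edgeR). Stat4 had 2 to 11 counts per mouse and was not tested. Of 9 further inhibitors of the pathway 1 rose, Pias1, whose product is a SUMO ligase that restrains STATs, by 0.13 on the log2 scale (adjusted p = 0.0916, edgeR).

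Upstream, the cytokines of the gp130 group (the interleukin 6 family) had few counts. Of 7 genes 3 were tested (Lif, Clcf1 and Ctf1, with 4 to 42 counts per mouse) and edgeR and DESeq2 called 0, with 0 at an unadjusted p under 0.05. Il6 itself had 0 to 3 counts in every mouse. Among 6 receptor genes of that group Osmr rose, the gene of the oncostatin M receptor. It had 7.64, 8.09, 16.2 and 9.99 CPM in SAH mice and 4.95 to 6.65 CPM in Control, and rose by 0.89 on the log2 scale (SE 0.18, adjusted p = 0.0184, edgeR). Every SAH mouse was above every control mouse, and SAH mouse 3 was highest, as in Stat3 and Socs3.

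Among the receptor genes for other ligands edgeR called 1 in each of 3 lists, and DESeq2 called 1, 3 and 3. The calls that DESeq2 added were Il15ra and Il4ra in the list of common gamma chain and interleukin 4 receptors, and Csf2rb and Csf3r in that of growth hormone, leptin and hematopoietic receptors. Il10rb, a chain shared by interleukin 10 and interferon lambda receptors, rose by 0.45 on the log2 scale (adjusted p = 0.0638, edgeR; 1 of 6 tested in its list). Il13ra1, which pairs with the interleukin 4 receptor ahead of STAT6, had 8.32 to 9.4 CPM in SAH mice and 5.27 to 6.92 CPM in Control and rose by 0.58 (adjusted p = 0.0045; 1 of 6). Lepr, the leptin receptor gene, had 4.5 to 5.6 CPM in SAH and 1.09 to 3.26 CPM in Control and rose by 1.44 (adjusted p = 0.0055; 1 of 7). Within Control it had 1.98 to 3.26 CPM in Sham and 1.09 to 1.36 CPM in Naive mice. The log2 fold change of Lepr was 1.04 against Sham and 2.00 against Naive (adjusted p = 0.0471 and 0.000546, edgeR), and Sham against Naive it was 0.96, not past the threshold (unadjusted p = 0.000906, adjusted p = 0.9998). The medians over these 3 lists were 0.12, 0.52 and 0.46.

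Downstream, target genes of type I interferon were higher in SAH. Of 8 tested targets 7 rose, and the median log2 fold change was 1.34. Irf7, itself a factor of the interferon response, rose by 2.10 (adjusted p = 0.00084, edgeR), Ifit3 by 1.35, Ifit1 by 1.41 and Rsad2 by 1.33, the last 3 coding for antiviral proteins. The 1 that was not called was Irf9, the gene of the factor that works with STAT2. It differed by 0.37 on the log2 scale (adjusted p = 0.215, edgeR), with 15 CPM in SAH mouse 4, against 6.91 to 9.43 CPM in the other 9 mice. The study names several of these interferon genes from the same mice, so their direction is not independent evidence.

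Among the targets of STAT3, STAT5 and STAT6 there were calls in both directions. Of 8 tested STAT3 targets 2 rose and 1 fell, and the median was 0.08. Gfap, the filament gene of reactive astrocytes, rose by 1.0 (adjusted p = 0.00535, edgeR) from 349.6 to 477.8 CPM in Control to 768.4, 495.1, 1142 and 842.6 CPM in SAH mice, and Osmr rose as given above. Junb, an early gene of neuronal activity as well, fell by 0.70 on the log2 scale (adjusted p = 0.00629). Of 5 STAT5 targets Igf1 rose by 0.26 (adjusted p = 0.0886), while Cish and Socs2, the usual readouts of STAT5, differed by 0.04 and −0.09 on that scale (adjusted p = 0.889 and 0.586). Of the 6 STAT6 targets counted here, 2 were tested. Mrc1, a mannose receptor of border macrophages, rose by 1.06 (adjusted p = 0.00929), and Il4ra differed by 0.64 (adjusted p = 0.124), a gene that DESeq2 called (adjusted p = 0.047). Mrc1 had 8.31 to 11.2 CPM in SAH, 5.24 to 6.08 in Sham and 2.93 to 3.39 in Naive mice. Its log2 fold change was 0.71 against Sham and 1.53 against Naive (adjusted p = 0.0471 and 0.000231, edgeR), and Sham against Naive it was 0.81, which did not pass the threshold in edgeR (unadjusted p = 9.3e-05, adjusted p = 0.705) and passed it in DESeq2 (adjusted p = 0.0376).

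Of these 78 other pathway genes, 64 were tested, of which 23.4% were called higher (3.13% over all tested genes) and 1 gene lower by edgeR, and the median log2 fold change was 0.14. Of the 15 genes called higher, 7 were the type I interferon targets already described. The plot of the gene lists sets these beside the 9 JAK, STAT and SOCS genes.

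**Figure D4:**
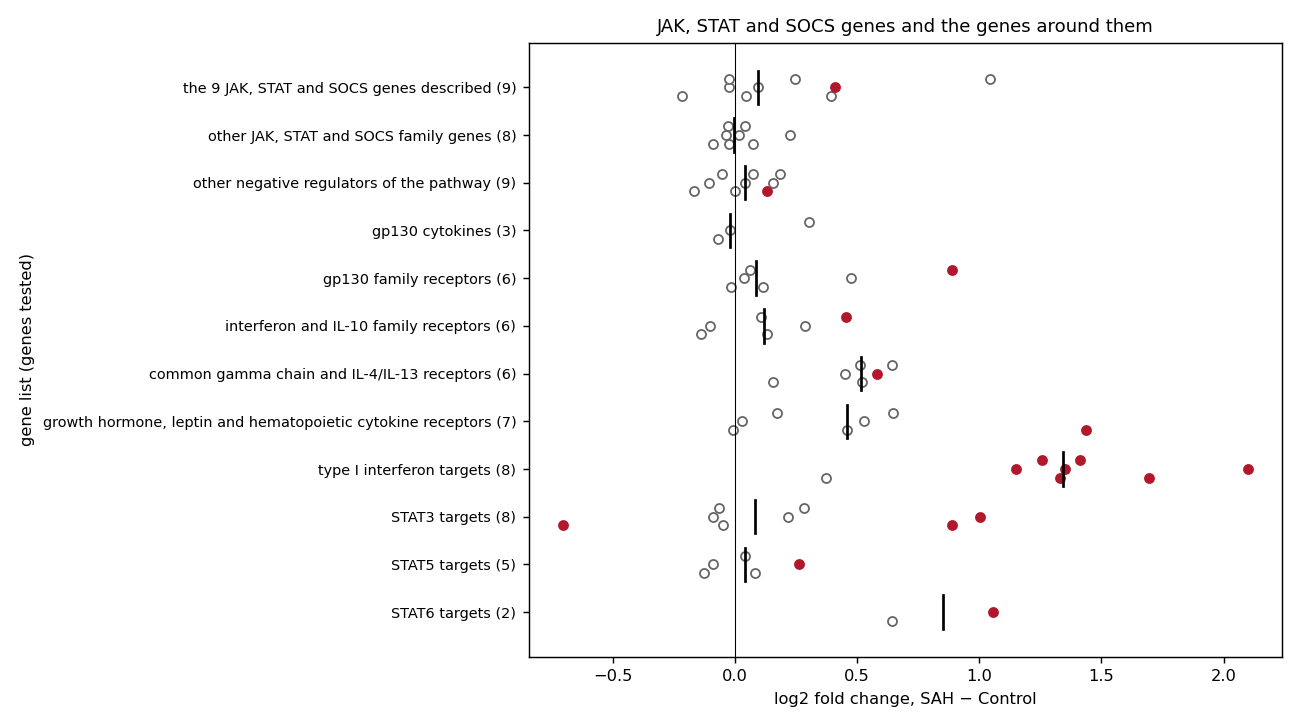
Log2 fold change in SAH against Control (horizontal axis) of each tested gene by list (vertical axis, number tested in brackets), with filled points at an adjusted p under 0.10 and the median of a list as a black line. The targets of type I interferon lie to the right, with a median of 1.34, while the 9 genes themselves have a median of 0.09.

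Among single mice, the STAT3 targets and the interferon targets differed in which SAH mouse was highest. SAH mouse 3 was the highest of the 4 SAH mice in 9 of 10 STAT3 targets, against 33.5% of all tested genes, and SAH mouse 4 in 9 of 9 interferon targets, against 25.7%. This tally was made after the values were seen, and the genes share their mice and are not independent replicates. The exception was Junb, with 62.1, 69.1, 49.9 and 44.8 CPM in SAH mice 1 to 4, highest in SAH mouse 2. The STAT3 targets highest in SAH mouse 3 included Gfap and Osmr and also Cebpd (22.3 CPM against 9.16 to 15.9 in the other 9 mice) and Pim1 (2.73 against 1.03 to 2.08 CPM). SAH mouse 3 also had 79 counts of Timp1 and 26 of Bcl3, against 2 to 23 and 3 to 24 in the other mice. In Myc (4.6 CPM), Mcl1 (80.7) and Bcl6 (71.95) SAH mouse 3 was the highest of the 4 SAH mice but within the control range. That range was 4.18 to 4.89, 71.99 to 89.8 and 55.6 to 78.7 CPM. Timp1, Bcl3 and the interferon target Mx1 were not among the tested genes of SAH against Control. In the interferon targets the order was different: SAH mouse 4 was highest and SAH mouse 3 lowest in Ifit1 (7.32 and 3.64 CPM) and Ifit3 (12.2 and 6.11 CPM). Stat2 had the same highest and lowest SAH mouse, but the order of SAH mice 1 and 2 differed. SAH mouse 1 was above SAH mouse 2 in Ifit1 (6.92 and 4.38 CPM) and Ifit3 (11.7 and 7.32 CPM) and below it in Stat2 (23.4 and 26.4 CPM). Irf7 was highest in SAH mouse 4 (8.11 CPM) and lowest in SAH mouse 2 (3.27 CPM). Cebpd, Pim1, Timp1, Bcl3, Irf9, Il6, Il4ra, Cish, Socs2, Lif, Clcf1, Ctf1, Il15ra, Csf2rb and Csf3r are named outside the rule for named genes, after their values were seen. The same holds for Myc, Mcl1, Bcl6, Mx1, Cx3cr1, P2ry12, Aldh1l1, Aqp4, Slc1a2 and Alas2.

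**Figure D5:**
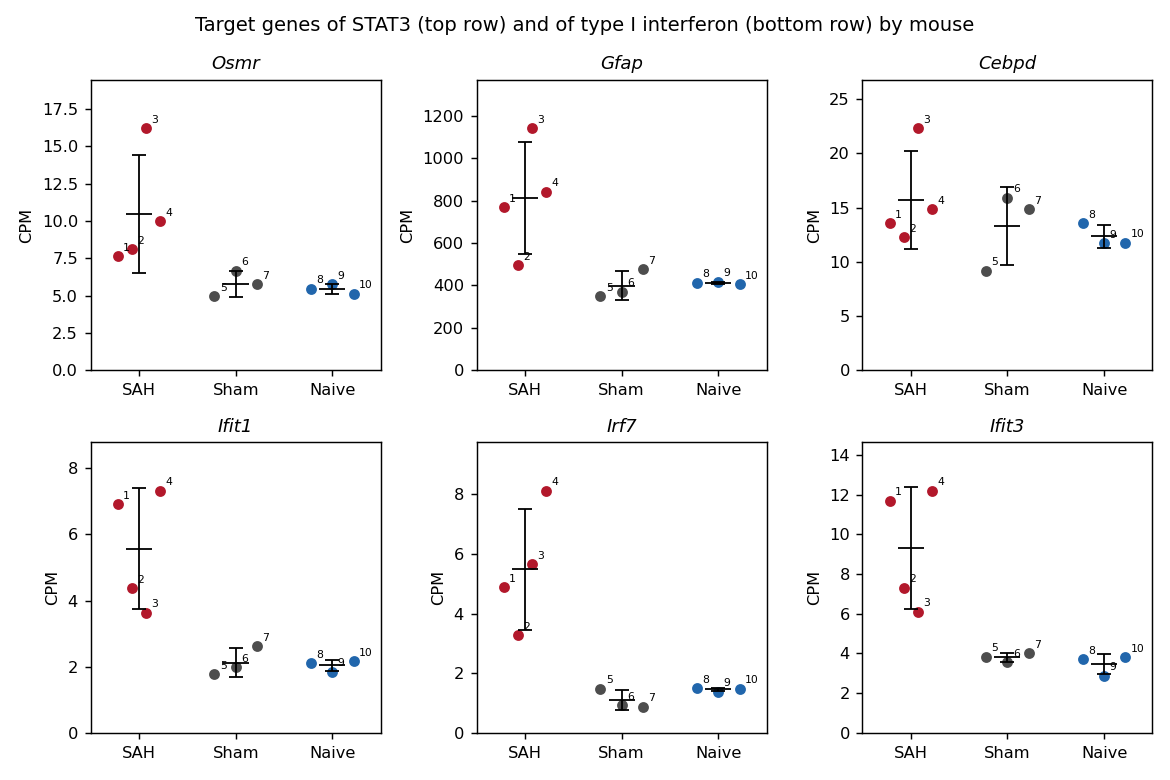
Level in CPM (vertical axis, from 0) of the STAT3 targets Osmr, Gfap and Cebpd and of the interferon targets Ifit1, Irf7 and Ifit3, with 1 point per mouse labelled by its number, and the mean and SD of each group in black. SAH mouse 3 is highest in the top row, and SAH mouse 4 is highest in the bottom row.

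Marker genes of other cell types were called in SAH against Control for meningeal fibroblasts (5 of 6 higher), endothelium (3 of 6 higher), microglia (1 of 6 higher) and oligodendrocytes (6 of 6 lower). Markers of meningeal fibroblasts (6 of 6 counted in every mouse) summed to 173.6 to 327.5 CPM in SAH, 159.3 to 164.7 in Sham and 127.6 to 137.5 in Naive mice. Those of oligodendrocytes (6 of 6) summed to 4550 to 5832 CPM in SAH and 6701 to 9307 CPM in Control. Astrocyte markers (6 of 6) overlapped, with 4830 to 5285 and 4889 to 5301 CPM, most of it from Slc1a2 (3310 to 3706 and 3482 to 3793 CPM). Among the 6, edgeR called 0 and DESeq2 1. Aldh1l1 and Aqp4 (log2 fold changes 0.26 and 0.21) had an unadjusted p under 0.05 in edgeR, as 17% of tested genes did. Markers of monocytes and neutrophils (2 of 6 counted in every mouse) summed to 1.51 to 2.81 CPM in SAH and 0.339 to 1.21 in Control, and those of T and NK cells (0 of 5 counted in every mouse) to 0.0736 to 0.36 and 0.0368 to 0.113 CPM. Of the red blood cell markers the 4 globin genes were listed at 0 in every mouse. Reads with several places were left out of the counts, and their part in these zeros was not tested. Alas2, the other marker, had 1.06 to 3.68 CPM in SAH and 1.32 to 2.57 CPM in Control. The part of these cells in the values above was not tested.

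The genes whose pattern over the 10 mice was most alike were found by the mean absolute difference of standardised log2 CPM. For Stat6 they were Bmx (0.165), Parp9 (0.234) and Gbp5 (0.237), where the median over all tested genes was 1.10. For Socs3 they were Ankrd33b (0.162), Sf3b2 (0.175) and Rhoj (0.223), and for Stat3 Nhsl2 (0.153), Fam21 (0.175) and Pid1 (0.178), with medians of 1.06 and 1.05. Standardising takes out the size of a change. In SAH against Control the log2 fold changes were 0.13, 0.03 and 0.70 for the genes beside Socs3. Beside Stat3 they were 0.15, 0.20 and 0.20. Of all these genes only Parp9 and Gbp5 were called (adjusted p = 0.0832 and 0.0724, edgeR).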

How the data were processed

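Ribosome-depleted, strand-specific libraries from 10 mice were sequenced from both fragment ends. STAR (default settings, mm9) was the aligner used by the authors, who merged the alignments of a mouse and then ran featureCounts 1.6.2 (paired, reverse-stranded, exons of the UCSC annotation by gene name), leaving out reads with several places or genes. The deposited values are raw counts. From these, CPM and log2 CPM (prior count 2) were computed here. Genes passed edgeR's filterByExpr (minimum count 10, total 15), and SAH was compared with pooled Sham and Naive by edgeR 4.0.16 (R 4.3.3) with TMM and the quasi-likelihood test, and p-values were adjusted by Benjamini-Hochberg. The pairwise comparisons came from 1 fit of the 3 groups. The script was tested on simulated data. Standard errors are the size of the log2 fold change divided by the square root of F.

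Levels per length used the length in the count tables. Of 167 exons of the 9 genes, 157 matched an exon of the NCBIM37 (mm9) annotation at both ends, and promoters were read from that genome. Protein sequences were not used here. Each mouse is a replicate, none of the 12 pairs of libraries within a group was alike within counting noise (pairs across groups were not compared), and a count of 0 allows up to 3 counts (counting error only).

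The 9 genes, the gene lists and the tests were chosen with earlier results of these data known. Named genes were the 9, Stat4, Jak3, Tyk2, up to 4 called genes of each list with the smallest p, and the 3 genes of most alike pattern for the 3 of the 9 with the smallest p. Alternatives were DESeq2 1.42.0, its size factors, a minimum of 10 counts per mouse or no filter at all, an adjusted p under 0.05, other fits of the groups and each mouse left out. A fit without the 3 mice with the highest choroid plexus markers was added after the data were seen. It keeps only mice 1 and 2 in the SAH group. Some results are not reported here.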

Additional observations from a re-analysis of the deposited data

Results flagged for a closer look

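Stat5a in Sham mouse 7 (1.97 CPM) stood apart from the other 5 control mice (1.4 to 1.59 CPM): its gap to the next mouse was 0.627 of the whole control range on the log2 CPM scale, just above Dixon's limit of 0.625 for 6 samples. It was 1 of 18 groups compared in this way, and chance passes the limit in about 1 of 20.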

How the results depend on the processing

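No paired analysis was possible because the mouse numbers of SAH, Sham and Naive mice do not overlap. Of the 9 genes, 1 was called in SAH against Control (Stat6), DESeq2 called 2, and leaving out each mouse gave 0 to 3: none without SAH mouse 4 or Naive mouse 8, 9 or 10, and Stat3, Stat6 and Socs3 without SAH mouse 2. Against Naive, DESeq2 called 1 (Stat6), and leaving out each mouse gave 0 to 1, the 1 being Stat6 without SAH mouse 3. Over all tested genes, 701 calls became 1030 by DESeq2 (632 higher and 398 lower), 369 at an adjusted p under 0.05, 330 without the 3 mice with the highest choroid plexus markers, and 308 (without SAH mouse 4) to 1093 (without SAH mouse 2), with 361, 427 and 396 without Naive mice 8, 9 and 10. The other pathway genes had 12 to 21 calls, against 16. Log2 fold changes that changed sign were near 0 or from few counts, and the cause was not tested. Without the 3 mice they were −0.0074 for Stat5a, 0.023 for Stat5b and 0.026 for Jak2. With each mouse left out, against Control, Stat2 ran from −0.0041 to 0.15, Jak2 from −0.051 to 0.029 and Socs1 from −0.72 to 0.021. Against Sham, Stat2 ran from −0.025 to 0.13, Jak2 from −0.041 to 0.042 and Socs1 from −0.28 to 0.46. Against Naive, Stat5b ran from −0.052 to 0.021, Jak1 from −0.0073 to 0.066 and Jak2 from −0.065 to 0.015. Between Sham and Naive, Stat2 ran from −0.0036 to 0.078, Stat5a from −0.067 to 0.19, Stat5b from −0.015 to 0.057, Stat6 from −0.0085 to 0.13, Jak1 from −0.073 to 0.0012 and Jak2 from −0.069 to 0.0027. The fewest counts per mouse were those of Socs1 (4 to 24), Socs3 (14 to 89) and Stat5a (31 to 65).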
